A study of Mus musculus with 4 samples.

Results

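Osteogenic and mineralization genes were followed in mouse brain cells sorted as endothelial cells (ECs), from mice with floxed Mgp that did or did not receive tamoxifen. The set held 9 genes chosen by name: the bone matrix protein genes Bglap, Ibsp and Spp1, the transcription factor genes Runx2, Sp7 and Sox9, and the mineral-controlling genes Alpl, Phex and Enpp1. All 9 were present among the 24873 genes of the expression table. The mice of every library carried VE-cadherin cre/ERT2 with Mgp fl/fl, written Cdh5cre;Mgpflox/flox in the sample labels. In this strain the VE-cadherin (Cdh5) promoter drives a Cre recombinase that tamoxifen activates, and Cre is meant to remove Mgp, the gene of matrix Gla protein, an inhibitor of bone morphogenetic proteins (BMPs) and of calcification. Tamoxifen was injected intraperitoneally once a day for 5 days, at 75 mg/kg, into mice aged 10 weeks, and cells were taken on day 9. The 2 control libraries came from mice of the same genotype that received no tamoxifen, so tamoxifen itself and any loss of Mgp cannot be told apart here. Each library was made from cells pooled from 3 mice. The labels call the cells tdTomato+ brain cells and the series' design text calls them CD31+CD45- brain cells.

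Bone forms when osteoblasts lay down a collagen matrix and then load it with calcium phosphate. RUNX2 acts early in the osteoblast lineage, osterix (the product of Sp7) acts downstream of it, and SOX9 directs the cartilage lineage. Mature osteoblasts secrete osteocalcin, bone sialoprotein and osteopontin, while tissue-nonspecific alkaline phosphatase breaks down pyrophosphate, an inhibitor of mineral that ENPP1 produces. In vessels the same genes are followed as signs of calcification, and some of them also serve other cells: osteopontin is abundant in activated macrophages, alkaline phosphatase lines the brain capillaries and SOX9 is a factor of astrocytes.

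The libraries held 35387438 to 49799321 reads on the listed genes, and the values are normalized counts, that is, reads per gene divided by 1 factor per library. A gene was called when its limma adjusted p was under 0.05 and its log2 fold change exceeded 1 in size. The comparison called 44.7% of the 20485 genes tested, with 28.6% higher and 16.0% lower in the tamoxifen libraries, so counts of the 9 genes are read against these shares. The targeted gene, Mgp, stood at 1094 and 1352 normalized counts without tamoxifen and at 945 and 909 with it. Its log2 fold change of -0.39 ± 0.18 (SE) was not called (limma adjusted p = 0.0986), and it became 0.08 when the libraries were set to equal totals. Whether the reads of Mgp came from the deleted part of the gene was not tested. Endothelial markers were present in every library but fell: the sum of 10 of them, such as Kdr and Slco1a4, was 941572 and 909669 in the controls and 155806 and 78156 with tamoxifen. In bulk RNA fewer cells of a type and less RNA per cell cannot be told apart.

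Of the 9 osteogenic and mineralization genes, 8 were called higher in the tamoxifen libraries, 0 were called lower and Alpl was not called. Bglap, Ibsp, Sp7 and Phex had control means of 0 to 2.68 normalized counts. They passed the filter, a mean of 10 over all libraries, only through their tamoxifen values. Such genes could hardly be called anything but higher, so their calls were largely fixed by the filter. No gene of the set had a fold change below 0 in limma, edgeR or DESeq2, so 0 were lower at an unadjusted p under 0.05 too. Over all tested genes 28.6% were called higher. In each of the 9 genes both tamoxifen libraries lay above both control libraries, which was true of 43.1% of all tested genes. The set had a median log2 fold change of 4.40, beside 0.05 for all tested genes. It was also 4.40 with Ibsp, which had no control read, set at its lower bound. That bound lies above the median, so this step could not move it. The median gene was Phex, whose log2 fold change was 3.32 with 5 added before the logarithm and 3.13 under quantile normalization. Phex, like Bglap, Ibsp and Sp7, passed the filter only through its tamoxifen values, so the median was partly fixed by the filter. The remaining genes had log2 fold changes of 8.10 (Spp1), 3.36 (Runx2), 2.24 (Enpp1), 1.13 (Sox9) and 0.55 (Alpl). The largest changes were those of Spp1 and Ibsp and the smallest that of Alpl. With 2 libraries a group, an exact permutation test of 1 gene cannot go below p = 0.33, so the tests here rest on limma, which shares information on the spread between genes. Without tamoxifen 1, or without tamoxifen 2, only 2 of the 9 genes, Ibsp and Spp1, were called higher, and the share of all tested genes called higher was then 14.8% and 12.5%.

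**Figure D1:**
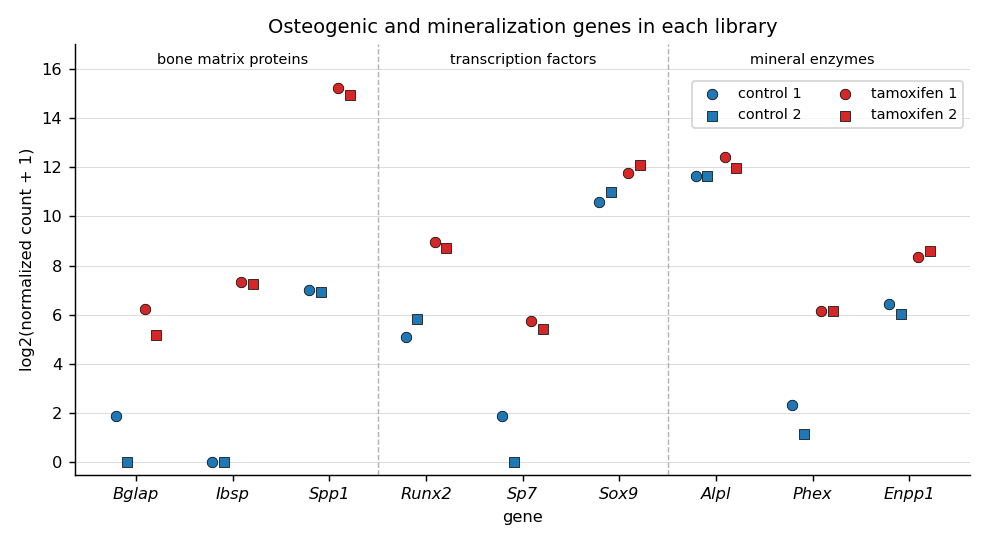
Normalized counts of the 9 genes in each library, as log2(normalized count + 1) on the vertical axis, with genes on the horizontal axis grouped by role. Each point is 1 library, controls in blue and tamoxifen in red. The 2 red points lie above the 2 blue points in all 9 genes, and the gap runs from 0.55 for Alpl to 8.10 for Spp1 between group means.

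Osteopontin, encoded by Spp1, gave the largest difference. Osteopontin is a phosphorylated glycoprotein that binds bone mineral and integrins and restrains crystal growth. Spp1 lies on the plus strand at chr5:104582165-104589235 (GRCm39). Its 2 control values were 127 and 120 normalized counts, and with tamoxifen it stood at 37818 and 31141. The groups did not overlap, and the lower tamoxifen library was far above either control. The difference was 275-fold (245 to 308 at 1 SE either side, log2 fold change 8.10 ± 0.16, limma adjusted p = 8.09e-07). Spp1 ranked 11684 by mean normalized count among the listed genes in the controls and 55 in the tamoxifen libraries, where it took 0.0986% and 0.0870% of all reads. Its fold change exceeded that of 99.6% of tested genes. A gene model on the same strand with exons inside Spp1, Gm42793, had no control read and 29.3 and 12.9 normalized counts with tamoxifen, a small amount beside Spp1 itself.

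Ibsp, the gene of bone sialoprotein, had no read in either control library. Bone sialoprotein is an acidic matrix protein that nucleates hydroxyapatite. The gene lies upstream of Spp1 on the same strand, at chr5:104447037-104459338. It reached 160 normalized counts (148 reads) in tamoxifen 1 and 152 (211 reads) in tamoxifen 2. Both values were close to each other, and the increase was at least 39.7-fold against a floor of 3 reads per control library. The limma log2 fold change was 7.29 ± 0.58 (adjusted p = 5.76e-05), and it depends on the value added before the logarithm: it was 5.01 with 5 in place of 1.

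Both genes belong to the family of small integrin-binding phosphoproteins, whose members sit together on chromosome 5. In this run of genes Dmp1, which controls phosphate in osteocytes, rose from 13.7 and 33.8 normalized counts to 198 and 251 (log2 fold change 3.31 ± 0.54, limma adjusted p = 0.00135). Its limma adjusted p was 0.0867 without tamoxifen 1 and 0.103 without tamoxifen 2. Mepe and Dspp, the other family members there, were not analysed here. The flanking genes were not called. Sparcl1 upstream stood at 139883 and 155514 against 77650 and 109248, a log2 fold change of -0.68 that was not called (limma adjusted p = 0.163) and that was 0.55 under quantile normalization. Pkd2, the next gene downstream of Spp1, had a log2 fold change of -0.38 (limma adjusted p = 0.0808), which was 0.09 with equal totals and 0.0039 under quantile normalization.

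Osteocalcin, encoded by Bglap, is a vitamin K-dependent protein like matrix Gla protein and is made by mature osteoblasts. Bglap lies on the minus strand at chr3:88290808-88291771. Control 1 held 2 reads of it and control 2 held 0, while tamoxifen 1 held 68 and tamoxifen 2 held 49. In normalized counts these were 2.74 and 0 against 73.7 and 35.2, so the tamoxifen libraries differed from each other but both stood well above the controls. The ratio of reads, corrected for the library factors, was 38.7 (exact 95% interval 10.5 to 323, counting error only). The limma log2 fold change was 4.75 ± 0.81 (adjusted p = 0.00164). The adjusted p was 0.0904 without tamoxifen 1 and 0.0740 without tamoxifen 2.

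Reads of Bglap cannot be assigned with certainty, because 2 related copies lie beside it on the same strand, Bglap2 at chr3:88285043-88286060 and Bglap3 at chr3:88275923-88280052. Of all windows of 50 bases along the 440-base Bglap transcript, 74.7% occur unchanged in Bglap2 and 20.5% in Bglap3. For windows of 100 bases the shares were 56.3% and 0.0%, so mainly Bglap2 can take or give reads of Bglap. Neither copy had a control read. Bglap2 stood at 26.0 and 25.9 normalized counts in the tamoxifen libraries (at least 6.60-fold higher against the floor of 3 reads per control library) and Bglap3 at 31.4 and 20.8 (at least 6.65-fold higher). The 3 genes summed went from 2.74 and 0 to 131 and 82.0, a read ratio of 77.7 (exact 95% interval 21.3 to 645). Taken singly or summed, the copies were higher with tamoxifen in both libraries.

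The sequences before the starts of these copies and of Enpp1 are shown because they hold, or in Bglap3 lack, the letters that RUNX2 and its relatives recognise. The window searched was the 250 bases before the start of each gene's main transcript, read from GRCm39 with gene models of GENCODE M39, and the motif was TGTGGT on either strand. Only bases 250 to 51 before the start are printed, 5′ to 3′ on the gene's strand, with a match in capitals.
Bglap (chr3:88291791-88291990, minus strand): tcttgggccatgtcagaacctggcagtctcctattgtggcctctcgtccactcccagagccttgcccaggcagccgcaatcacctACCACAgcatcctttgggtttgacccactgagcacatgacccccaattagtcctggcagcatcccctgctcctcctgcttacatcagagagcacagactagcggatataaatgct
Bglap2 (chr3:88286111-88286310, minus strand): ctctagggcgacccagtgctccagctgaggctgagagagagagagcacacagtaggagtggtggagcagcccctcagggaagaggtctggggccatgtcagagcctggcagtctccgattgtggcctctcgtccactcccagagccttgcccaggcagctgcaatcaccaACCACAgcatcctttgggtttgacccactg
Bglap3 (chr3:88277189-88277388, minus strand): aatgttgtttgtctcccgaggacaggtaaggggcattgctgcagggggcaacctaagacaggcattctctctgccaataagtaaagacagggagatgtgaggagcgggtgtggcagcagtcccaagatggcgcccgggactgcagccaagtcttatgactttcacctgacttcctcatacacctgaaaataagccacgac
Enpp1 (chr10:24588107-24588306, minus strand): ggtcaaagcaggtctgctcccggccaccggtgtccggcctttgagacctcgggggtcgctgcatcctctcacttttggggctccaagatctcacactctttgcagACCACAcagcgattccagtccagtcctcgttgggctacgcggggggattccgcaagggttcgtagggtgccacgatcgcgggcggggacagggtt
All matches read ACCACA, the reverse complement of the motif. The match ended 160 bases before the start in Bglap, 75 in Bglap2 and 140 in Enpp1. Of the 9 genes, 2 held a match in this window, Bglap and Enpp1, and among 21770 protein-coding promoters 13.0% did. A match describes letters only, and the window of Bglap3 lies inside the span of that gene, which has other starts.

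Runx2 encodes the transcription factor that commits cells to the osteoblast lineage. The gene spans chr17:44806874-45125684 on the minus strand. Its level was 32.9 and 56.3 normalized counts in the controls and 490 and 417 with tamoxifen. The groups were far apart relative to the spread within each, at 44.6 ± 16.6 against 453 ± 51.6 (SD, n = 2 each). The fold change was 10.3 (log2 fold change 3.36 ± 0.40, limma adjusted p = 0.000268). It was 2.35 on the log2 scale under quantile normalization, and without tamoxifen 1 or tamoxifen 2 the limma adjusted p was 0.0632 and 0.0608. Supt3, which overlaps Runx2 on the opposite strand, stood at 284 and 310 against 454 and 427, with a log2 fold change of 0.57 (limma adjusted p = 0.0712) that was -0.37 under quantile normalization and 1.04 (adjusted p = 0.00691) with equal totals.

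Sp7 encodes osterix, which osteoblast precursors need to mature. It lies on the minus strand at chr15:102265038-102279370. Control 1 held 2 reads, control 2 held 0, tamoxifen 1 held 48 and tamoxifen 2 held 58. In normalized counts the controls were at 2.74 and 0 and the tamoxifen libraries at 52.0 and 41.7, with no overlap. The read ratio was 35.03 (exact 95% interval 9.46 to 293), and the limma log2 fold change was 4.62 ± 0.77 (adjusted p = 0.00146). Without tamoxifen 1 or tamoxifen 2 the adjusted p was 0.0842 and 0.0833.

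Sox9, the cartilage factor, behaved differently from the other 2 factors in that it was already abundant without tamoxifen. The gene is at chr11:112673009-112678586 on the plus strand. It stood at 1516 and 2044 normalized counts in the controls and at 3471 and 4283 with tamoxifen. The control libraries were further apart here than in Alpl or Spp1, yet the groups did not overlap. The fold change was 2.19 (log2 fold change 1.13 ± 0.20, limma adjusted p = 0.00186), just past the size limit. Without control 1 the log2 fold change was 0.92, under that limit, and without tamoxifen 1 or tamoxifen 2 the limma adjusted p was 0.0672 and 0.102. The noncoding gene BC006965, on the opposite strand with exon positions that overlap those of Sox9, was at 8.22 and 10.01 normalized counts in the controls and 34.7 and 76.9 with tamoxifen.

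Alpl, the gene of tissue-nonspecific alkaline phosphatase, was the one gene of the set that was not called. It lies on the minus strand at chr4:137469039-137524102. A gene model on the same strand, Gm63526, has exons that overlap those of Alpl and was not analysed here. Its level was 3170 and 3207 normalized counts in the controls and 5433 and 4035 with tamoxifen. Both tamoxifen libraries were higher, but they were well apart from each other. The fold change was 1.47 (log2 fold change 0.55 ± 0.18, limma adjusted p = 0.0307), under the size limit. With libraries set to equal totals it was 1.02 (adjusted p = 0.00159) and thus called. Without tamoxifen 1 it was 0.34, with a limma adjusted p of 0.104.

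Phex encodes a membrane endopeptidase of osteoblasts and osteocytes whose loss causes phosphate wasting. It spans chrX:155945071-156198308 on the minus strand. The controls held 3 reads and 1 read, or 4.11 and 1.25 normalized counts. The tamoxifen libraries held 65 and 98 reads and were nearly equal after normalization, at 70.4 and 70.5. The read ratio was 26.9 (exact 95% interval 10.3 to 100.02), and the limma log2 fold change was 4.40 ± 0.65 (adjusted p = 0.000776). Without tamoxifen 1 or tamoxifen 2 the adjusted p was 0.0511 and 0.0565.

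Enpp1 encodes the ectoenzyme that makes pyrophosphate from extracellular nucleotides and so opposes mineral deposition. It lies on the minus strand at chr10:24513812-24588057. It rose from 86.3 and 63.8 normalized counts to 325 and 389. The groups were again far apart, at 75.1 ± 15.9 against 357 ± 45.1 (SD, n = 2 each). The fold change was 4.74 (log2 fold change 2.24 ± 0.35, limma adjusted p = 0.000980). Under quantile normalization the log2 fold change was 1.07, and without tamoxifen 1 or tamoxifen 2 the limma adjusted p was 0.0659 and 0.0800. The gene of the enzyme that makes the mineral inhibitor was thus called. That of the phosphatase that removes it, Alpl, was also higher (limma adjusted p = 0.0307) but stayed under the size limit. The difference between the changes of Enpp1 and Alpl was not tested.

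**Figure D2:**
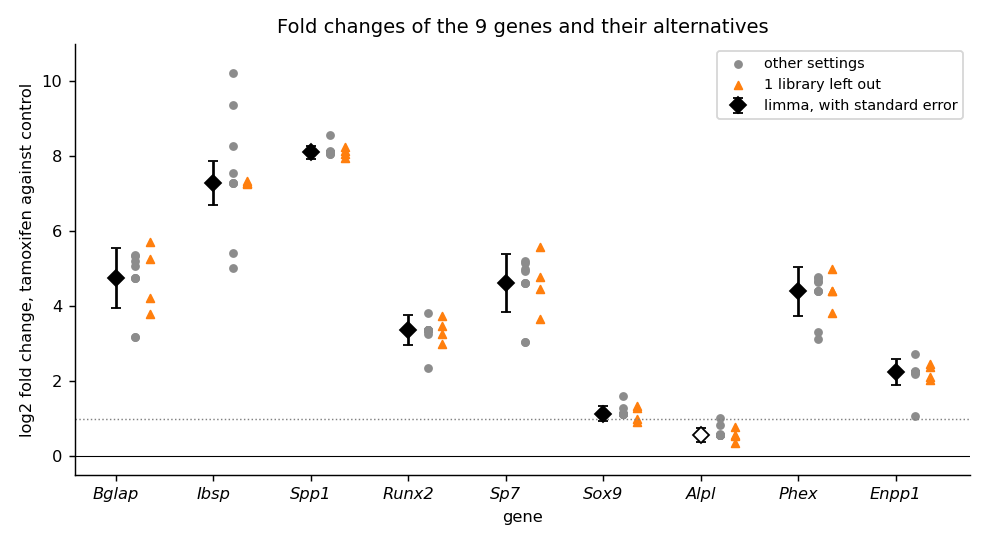
Log2 fold change of each of the 9 genes, tamoxifen against control, on the vertical axis. Diamonds with bars are the limma estimate ± 1 SE (open for Alpl, which was not called), grey dots are other settings, orange triangles leave out 1 library each and the dotted line marks the size limit of 1. Every point is above 0, from 0.34 for Alpl without tamoxifen 1 to 10.2 for Ibsp in edgeR.

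Placed among all tested genes by fold change, the 9 genes spread widely. Spp1 and Ibsp exceeded 99.6% and 99.2% of genes. Bglap, Sp7 and Phex exceeded 94.0%, 93.5% and 92.4%, and with Spp1 and Ibsp they made up the 5 genes of the set whose log2 fold change passed 4, as 9.65% of all tested genes did. Runx2 exceeded 86.4% of genes, Enpp1 79.1%, Sox9 70.0% and Alpl 61.6%. The 4 genes with at most 4 reads over both controls (Bglap, Ibsp, Sp7 and Phex) were thus all in the upper part, and their fold changes carry the widest errors of the set. They passed the filter only through their tamoxifen values, so a place in the upper part was largely fixed in advance.

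Levels of different genes were compared per kilobase (kb) of exon. In the tamoxifen libraries Spp1 led with 13302 and 10954 normalized counts per kb. Sox9 followed with 831 and 1026 and Alpl with 1045 and 776, and these 2 genes overlapped. Bglap, at 119 and 57.0, overlapped Ibsp, at 77.5 and 73.2. Runx2 (55.4 and 47.2) came next, then Enpp1 (31.5 and 37.6), and last Sp7 (13.7 and 10.99) and Phex (11.2 in both), which overlapped. In level, then, the tamoxifen libraries held far more of the osteopontin transcript than of osteocalcin, bone sialoprotein or any of the 3 factors. In the controls the order was Alpl (610 and 617 per kb), Sox9 (363 and 489) and Spp1 (44.8 and 42.3), followed by Enpp1 (8.35 and 6.18) and Runx2 (3.72 and 6.37), which overlapped. The other 4 genes were at or under 3 reads in each control library, too few to be ordered.

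**Figure D3:**
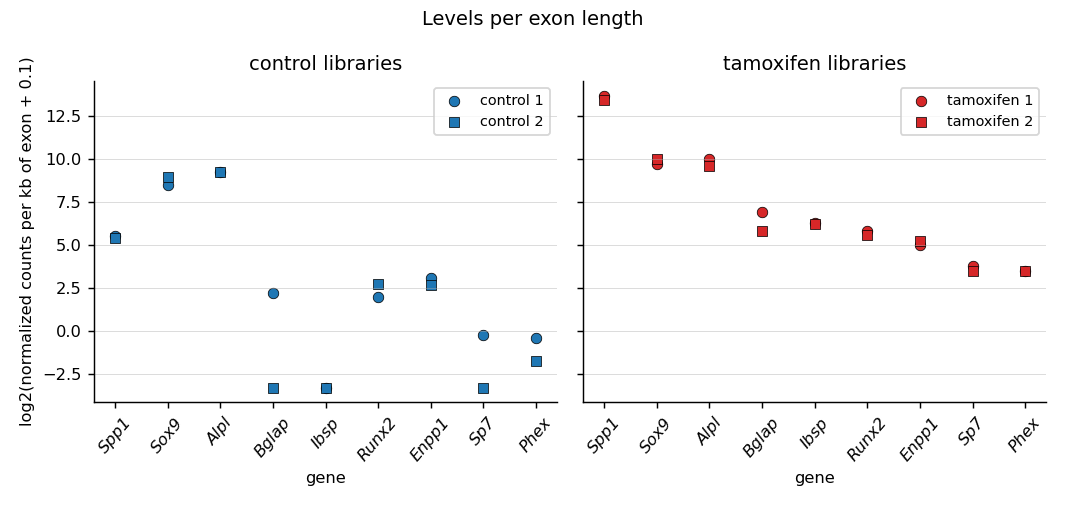
Levels of the 9 genes per length in the control libraries (left) and the tamoxifen libraries (right), as log2(normalized counts per kb of exon + 0.1) on the vertical axis with genes in the order of their mean tamoxifen level on the horizontal axis. Each point is 1 library. Alpl and Sox9 lead in the controls, Spp1 leads with tamoxifen, and the lowest control points are libraries with no read.

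Other genes of bone and cartilage formation and of phosphate handling were drawn from a list by role. Of its 67 genes 62 were in the table and 58 were tested, and 41 of these (70.7%) were called higher, beside 28.6% of all tested genes. Called lower were 5 (8.62%), beside 16.0% of all, and 12 were not called. The median log2 fold change was 2.58, and single genes ran from -2.89 to 6.66. Both tamoxifen libraries were above both controls in 46 of the 58 genes and below them in 9, beside 43.1% and 39.2% of all tested genes. Without tamoxifen 1 or tamoxifen 2 the count called higher was 22 and 21. The count called lower was 3 without control 2 and 3 without tamoxifen 1. Low levels kept Fgf23, Wnt10b, Ifitm5 and Matn1 out of the test, and Mepe, Dspp, Sost, Ankh and Snorc were not analysed here. Some tested genes, such as Msx2 and Dkk1 (control means 1.94 and 1.25), passed the filter only through their tamoxifen values. Genes of this kind could hardly be called lower, so the count called higher was partly fixed by the filter.

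Among 14 tested genes of bone matrix and its processing, 8 were called higher and 1 lower, beside 28.6% and 16.0% of all tested genes. Their median log2 fold change was 1.95. Col1a1, a chain of type I collagen, which is the main protein of bone, rose from 367 and 494 normalized counts to 29952 and 23125 (log2 fold change 5.95 ± 0.20, limma adjusted p = 3.37e-06). Sparc, the gene of osteonectin, which binds collagen and mineral and is also abundant in endothelium, went the other way, from 189868 and 234568 to 93476 and 62789 (log2 fold change -1.46 ± 0.41, limma adjusted p = 0.0168). The fall of Sparc was not called with any 1 library left out (limma adjusted p 0.0725 to 0.154), with equal totals (-0.99) or under quantile normalization (-0.31). The matrix genes therefore did not all move with Spp1 and Ibsp.

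Of 6 tested signaling genes of osteoblasts and osteocytes, 4 were called higher and 1 lower. Pdpn, which encodes podoplanin, a glycoprotein of early osteocytes and of several other cell types, rose from 54.8 and 101 to 2545 and 2732 normalized counts (log2 fold change 5.13 ± 0.31, limma adjusted p = 1.90e-05). Lrp5, a Wnt co-receptor that sets bone mass and is also used by brain endothelium, fell from 14888 and 17326 to 5260 and 4091 (log2 fold change -1.79 ± 0.19, limma adjusted p = 0.000172).

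Among 13 transcription factors of the osteoblast lineage 9 were called higher and 1 lower, beside 28.6% and 16.0% of all tested genes. Their median log2 fold change was 2.58. Genes such as Msx2 and Dlx3 (control means 1.94 and 5.12) passed the filter only through their tamoxifen values. Dlx5, which acts upstream of Runx2 and Sp7, rose from 17.8 and 17.5 to 341 and 710 normalized counts (log2 fold change 4.72 ± 0.48, limma adjusted p = 0.000137). Atf4, the most abundant of them and a factor of the amino acid response as well as of osteoblasts, stood at 9191 and 8087 against 6356 and 5318, a log2 fold change of -0.57 that was not called (limma adjusted p = 0.0228, under the size limit). Zfp521, whose product binds and restrains RUNX2, fell from 2752 and 2817 to 1157 and 1639 (log2 fold change -1.01 ± 0.20, limma adjusted p = 0.00304). That call lay at the size limit: without tamoxifen 1 the log2 fold change was -0.76, without control 2 it was -0.998, and with equal totals it was -0.54.

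Of 11 tested genes that handle pyrophosphate and phosphate, 6 were called higher and 2 lower, beside 28.6% and 16.0% of all tested genes. Their median log2 fold change was 1.49. Genes such as Slc34a2 and Ahsg (control means 0.626 and 4.62) passed the filter only through their tamoxifen values. Slc20a2, a phosphate importer, rose from 874 and 1088 to 3433 and 3995 normalized counts (log2 fold change 1.92 ± 0.18, limma adjusted p = 9.99e-05). The most abundant of these genes, Xpr1, a phosphate exporter, stood at 10133 and 8299 against 5345 and 6116, with a log2 fold change of -0.68 that was not called (limma adjusted p = 0.0119, under the size limit). Abcc6, a transporter whose loss lowers pyrophosphate and leads to ectopic calcification, fell from 13236 and 10338 to 2228 and 1114 (log2 fold change -2.89 ± 0.31, limma adjusted p = 0.000174). Entpd1, an ectonucleotidase of vessel walls that competes for the same nucleotides as ENPP1, fell from 8118 and 7433 to 2001 and 1323 (log2 fold change -2.25 ± 0.21, limma adjusted p = 0.000107), and was named after its values were seen. Enpp1 and Abcc6, both of which supply pyrophosphate, thus changed in opposite directions. The ratio of tamoxifen to control means was 0.142 for Abcc6 and 0.214 for Entpd1, beside 0.126 for the sum of the 10 endothelial markers. Whether the falls of Abcc6 and Entpd1 follow that of the endothelial markers was not tested.

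All 14 tested chondrocyte genes were called higher, with a median of 3.76, beside 28.6% of all tested genes called higher. Matn3, Acan, Cnmd, Col9a1 and Comp, with control means of 0 to 4.62, passed the filter only through their tamoxifen values. Matn1 stayed below it. The count of 14 was thus partly fixed by the filter. Col2a1, the collagen of cartilage and a target of SOX9, rose from 24.7 and 77.6 to 867 and 1022 normalized counts (log2 fold change 4.39 ± 0.51, limma adjusted p = 0.000252). Its limma adjusted p was 0.0746 without tamoxifen 1 and 0.0856 without tamoxifen 2. Hapln1, which links hyaluronan to aggrecan in cartilage and in the brain matrix, rose from 151 and 93.9 to 1383 and 3372 (log2 fold change 4.17 ± 0.42, limma adjusted p = 0.000143). Several of these genes, Hapln1 among them, are also expressed by neurons and glia.

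**Figure D4:**
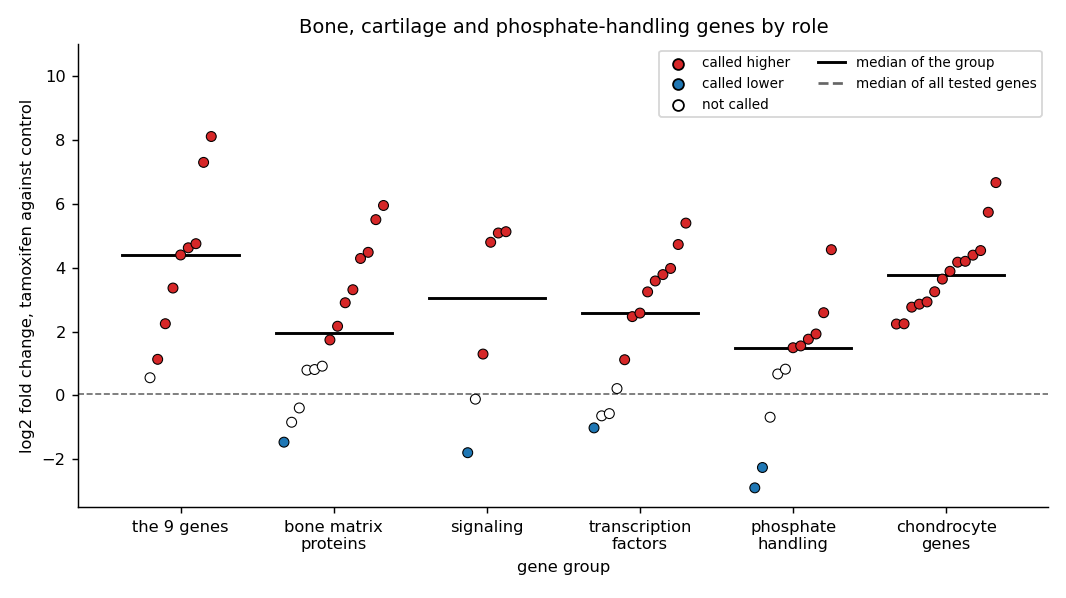
Log2 fold change, tamoxifen against control, of the 9 genes and of the other bone, cartilage and phosphate-handling genes by role. Each point is a gene, red where called higher, blue where called lower and white where not called, with a black line at the group's median and a dashed line at the median of all tested genes (0.05). Medians run from 1.49 for phosphate handling to 4.40 for the 9 genes, and the chondrocyte group has only red points. Genes almost absent from the controls were tested only where high with tamoxifen, so the median of the 9 genes was partly fixed by the filter.

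Markers of bone and cartilage cells rose together with the 9 genes. Beside the counts below, 28.6% of all tested genes were called higher. The sum of 8 osteoblast markers, 4 of which (Bglap, Ibsp, Sp7 and Phex) belong to the set, was 140 and 155 normalized counts in the controls and 1566 and 1766 with tamoxifen, and all 7 that were tested were called higher. The 8 osteoclast markers went from 278 and 314 to 6484 and 4624, with all 5 tested called higher. Calcr, Ocstamp and Atp6v0d2 had no control read. Low levels kept the other osteoclast markers out of the test. Among these was Oscar, whose groups overlapped, at 10.96 and 7.51 normalized counts in the controls and 3.25 and 11.5 with tamoxifen. Most of the osteoclast sum was Mmp9, at 4744 and 3297 with tamoxifen, and Acp5 was at 884 and 622. Mmp9 is also expressed by neutrophils, which the CD31+CD45- gate is meant to exclude. The 7 chondrocyte markers went from 50.7 and 96.4 to 1317 and 1499, with all 6 tested called higher and no control read of Matn1 or Matn3. Thus defining markers of bone and cartilage cells were at or near 0 in the controls and present with tamoxifen, and their part in the changes of the 9 genes was not tested. Markers at or near 0 in the controls could enter the test only through the tamoxifen libraries. The counts called higher in these lists were therefore partly fixed by the filter.

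The sums of most marker lists outside bone also shifted. Beside the counts called here, 28.6% of all tested genes were called higher and 16.0% lower. Neutrophils, microglia and macrophages carry CD45, and the CD31+CD45- gate is meant to exclude them. Whether such cells remained in the sorted pools was not tested. The 10 neutrophil markers, led by S100a9 and Ngp, went from 308 and 248 to 113408 and 84507, and all 10 were called higher. The 10 markers of pluripotent cells, led by Tdgf1 and Dppa5a, went from 108 and 170 to 58195 and 45222 (10 called higher). Astrocyte markers, led by Slc1a2 and Slc1a3, went from 31402 and 37396 to 169070 and 349761 (10 of 10 called higher), and astrocytes also express Sox9. Fibroblast markers, a list that contains Col1a1 and Col1a2, went from 3993 and 4767 to 71473 and 62430 (9 of 10). Markers of microglia and macrophages, cells that can express Spp1, went from 2534 and 3837 to 6643 and 5540 (6 of 10). Ependymal and choroid plexus markers went from 952 and 3399 to 9853 and 46544 (7 of 8). Oligodendrocyte precursor markers went from 5031 and 6724 to 22531 and 50610 (5 of 7, with 1 lower). The sums of pericyte and smooth muscle markers overlapped, at 33674 and 62388 in the controls and 45809 and 86935 with tamoxifen. Called higher were 3 of these 10 markers, near the share of all tested genes. All 10 endothelial markers were called lower. The part of these cell types in the values of the 9 genes was not tested.

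**Figure D5:**
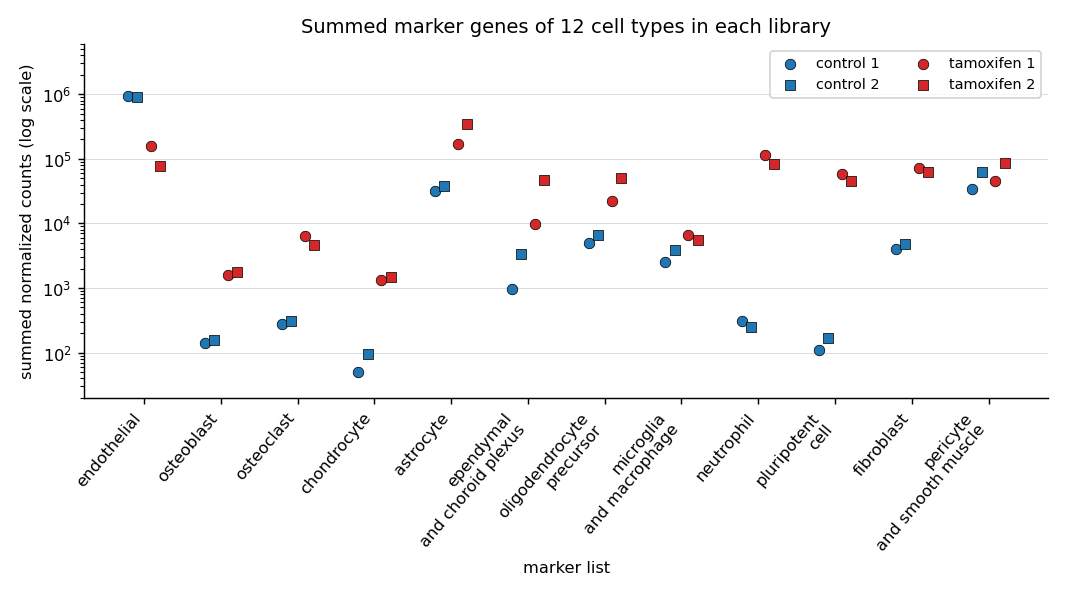
Summed normalized counts (log scale, vertical axis) of the markers of 12 cell types in each of the 4 libraries. Blue points are controls and red points tamoxifen libraries, and circles and squares are replicates 1 and 2. The endothelial sum is lower with tamoxifen, the pericyte and smooth muscle groups overlap, and in the other 10 lists both red points are above both blue points.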

How the data were processed

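RNA-seq was analysed in 2 control and 2 tamoxifen libraries, grouped by the labels. Per the labels and the study's methods, the authors used a stranded mRNA kit, aligned reads to GRCm39 with STAR 2.7.10a, counted them in the same step, removed low-count genes and scaled the rest with DESeq2 1.36.0. The annotation release and the strand setting of the counting are not given in the sources used here. The deposited table holds normalized counts, a signal per gene with 1 factor per library. Its control columns carry the letter C and its other columns the letter A, read as the tamoxifen group, which is the only other group. Every value was a whole multiple of the smallest in its column (100% whole within 0.01 reads), so reads were recovered.

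Genes whose normalized counts averaged 10 or more were tested as log2(value + 1) with limma 3.58.1 (trended eBayes), with Benjamini-Hochberg adjustment over all 20485 tested genes. Fold changes on this scale understate those of low genes. The scripts were tested on simulated data. The alternatives tried were a value of 0.5 or 5 added before the logarithm, a low-value limit of 100 or none, libraries scaled to equal totals or quantile-normalized, eBayes without its trend, blocking on replicate number, leaving out 1 library at a time, the adjusted p alone, and count models run on the reads with edgeR (version 4.0.16) or DESeq2 (version 1.42.0). Intervals of read ratios and floors cover counting error only. Nothing says that the pools came from separate experiments, so p-values measure the spread between these libraries, which may be partly technical. Normalized totals with tamoxifen were 0.722 of those in controls. The members and lists were chosen with earlier results of these data known. Named besides the members were, for each role, the most abundant gene and the largest called rise and fall among genes with a mean of at least 100, the copies of Bglap, Mgp, the 2 most abundant markers of lists that moved, and neighbours and overlapping genes. Exon lengths and positions came from GENCODE M39.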

Additional observations from a re-analysis of the deposited data

How the results depend on the processing

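Over 14 alternative fits the log2 fold changes of the 9 genes stayed above 0. The count of 9 called higher was 8 as reported, 4 with the filter at a mean of 100 (where only 5 of the 9 genes were tested), 9 with equal totals and 2 to 8 with 1 library left out, and the count called lower was 0 in all. edgeR called 5864 genes higher and 3377 lower, and DESeq2 5694 and 3045, each with 8 of the 9 genes higher. Of the bone, cartilage and phosphate genes, 41 called higher became 27 with the filter at 100 and 21 to 41 with 1 library left out; 5 called lower became 3 with equal totals, 8 with the adjusted p alone and 3 to 4 with 1 library left out. The filter tests fewer genes and a left-out library leaves 1 sample in a group, whose spread is taken from the other group. Calls were 64.1% higher as reported, 79.7% with equal totals and 45.6% under quantile normalization, and those scalings moved the median log2 fold change of all genes by 0.47 and -0.28. Among the genes named, 4 outside the set changed sign: Mgp was 0.0786 with equal totals, Pkd2 0.0935 with equal totals and 0.0039 under quantile normalization, Sparcl1 0.55 and Supt3 -0.37 under quantile normalization. The cause was not tested.

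The numbers of the replicates are shared by the groups but name no shared litter or day, and the deviations of same-numbered libraries correlated at 0.03 across 20485 genes, which are not independent. With a replicate block 8 of the 9 genes were called higher, as without it, and 6064 genes were higher and 3461 lower in all.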
